A study of Mus musculus with 2 samples.

Results

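The genes described are the 8 RFX transcription factor genes of the mouse, Rfx1 to Rfx8, taken by symbol from the 21938 protein-coding genes of the GENCODE annotation, with no measured value used in the choice. Accessible chromatin was measured by DNase-seq, in which the nuclease DNase I cuts DNA that is not covered by nucleosomes, in hippocampal tissue of female B6CASTF1/J mice aged 25 days. B6CASTF1/J is the hybrid of a C57BL/6 and a CAST parent, and the animals carried no other allele or treatment named in the labels. There were 2 libraries, labelled biological replicates 1 and 2 of a single group, from separate biosample entries that share one donor entry, so the spread between them may be partly technical. With 1 group there was no contrast between conditions, and every value is a description of these libraries.

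RFX factors bind DNA through a winged-helix domain that recognises the X-box, a pair of inverted arms that together read roughly as a palindrome. Rfx1, Rfx2, Rfx3, Rfx4 and Rfx6 are known to form dimers, while Rfx5 and Rfx7 lack the dimerisation domain. Rfx2, Rfx3 and Rfx4 are known for switching on genes of cilia, Rfx4 also for patterning the developing brain, Rfx5 for MHC class II expression together with Rfxap and Rfxank, and Rfx6 for the endocrine pancreas. In brain tissue, the cilia programme is best known in ependyma, the multiciliated lining of the ventricles, while neurons and astrocytes usually bear a single primary cilium.

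A deposited peak list of each library, called the strict list here, held 61466 peaks in replicate 1 and 50379 in replicate 2, and a second, longer list held 104506 and 91751. Connected sets of overlapping strict peaks of both libraries gave 37119 shared regions, in which the deposited peak signal was higher in replicate 1 in 96.5%, with a median log2 ratio of 1.19, so levels were compared within a library. The read depth of the libraries is unknown. Of the marker lists for the tissue, 5 of 7 excitatory neuron genes, 3 of 5 dentate granule cell genes (Rfx3 is itself on that list), 1 of 6 astrocyte genes, 3 of 7 ependyma and choroid plexus genes, 1 of 5 microglia genes, 0 of 5 oligodendrocyte genes and 0 of 6 hepatocyte genes had an open start. In a bulk tissue, fewer cells with an accessible site and less accessibility per cell cannot be told apart.

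Sequences that carry the findings are shown first, each read on the gene's own strand from the RefSeq copy of GRCm38.p6, the assembly of the deposited mm10 coordinates. The most accessible start region of Rfx2 and 2 regions in its introns are shown because the introns hold the X-box matches described below. Capitals mark CCAAT boxes (CCAAT on either strand) in the first sequence and X-box matches in the others.
Rfx2 start, chr17:56831101-56831400: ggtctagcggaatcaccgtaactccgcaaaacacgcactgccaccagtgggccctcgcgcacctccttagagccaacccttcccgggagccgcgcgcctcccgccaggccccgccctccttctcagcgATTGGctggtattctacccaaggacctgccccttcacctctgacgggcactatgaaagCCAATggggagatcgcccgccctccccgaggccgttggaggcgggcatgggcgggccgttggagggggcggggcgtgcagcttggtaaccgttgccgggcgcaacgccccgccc
Rfx2 intron, chr17:56814441-56814660: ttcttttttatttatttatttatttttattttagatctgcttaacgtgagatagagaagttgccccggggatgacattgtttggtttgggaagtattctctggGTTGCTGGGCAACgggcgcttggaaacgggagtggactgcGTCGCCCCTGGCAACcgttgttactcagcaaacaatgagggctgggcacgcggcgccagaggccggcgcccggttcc
Rfx2 intron, chr17:56810321-56810520: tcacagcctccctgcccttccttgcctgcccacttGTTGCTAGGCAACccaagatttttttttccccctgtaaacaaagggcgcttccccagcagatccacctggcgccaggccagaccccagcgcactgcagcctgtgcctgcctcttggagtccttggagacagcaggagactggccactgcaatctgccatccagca

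Distal regions of Rfx4, Rfx7 and Rfx8 are shown because they were accessible in both libraries where the gene's own start was not, or was less so. Capitals mark the shared footprints (stretches protected from cutting inside accessible DNA, called in both libraries) in the Rfx4 sequence and matches to the core of the CTCF motif in the Rfx7 and Rfx8 sequences. CTCF is the zinc-finger factor known for anchoring chromatin loops, and its motif was added to the search after these sequences had been read.
Rfx4 intron, chr10:84852641-84852860: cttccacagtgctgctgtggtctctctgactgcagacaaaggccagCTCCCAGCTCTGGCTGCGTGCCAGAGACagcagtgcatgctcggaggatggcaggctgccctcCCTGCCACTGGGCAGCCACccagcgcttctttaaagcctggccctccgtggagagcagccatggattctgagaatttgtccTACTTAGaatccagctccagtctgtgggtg
Upstream of Rfx7, chr9:72530341-72530520: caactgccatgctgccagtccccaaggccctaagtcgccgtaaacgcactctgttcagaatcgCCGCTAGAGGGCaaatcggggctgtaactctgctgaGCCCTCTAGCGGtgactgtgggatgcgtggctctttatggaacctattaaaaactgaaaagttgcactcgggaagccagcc
Rfx8 intron, chr1:39685941-39686140: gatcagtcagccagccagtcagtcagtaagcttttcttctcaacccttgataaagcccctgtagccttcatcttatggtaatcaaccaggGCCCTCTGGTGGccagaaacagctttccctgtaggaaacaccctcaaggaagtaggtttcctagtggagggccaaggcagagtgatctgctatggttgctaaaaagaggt

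A transcription start was called open where a strict peak of each library lay within 500 bp of it, and a gene where any of its starts was open. By that rule 5 of the 8 genes were open, Rfx1, Rfx2, Rfx3, Rfx5 and Rfx7, and 3 were not, Rfx4, Rfx6 and Rfx8. Over all protein-coding genes 54.1% were open (11862 of 21938), so the count for the family is close to the background. Of the 46 annotated starts of the family 27 were open, against 42.8% of the starts of all protein-coding genes (39994 of 93513), and neighbouring starts share a window and are not independent. With transcripts tagged as basic alone the count was 14 open starts, in the same number of open genes. The order of the open members by signal was the same in both libraries, Rfx1, Rfx2, Rfx3, Rfx5 and Rfx7.

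**Figure D1:**
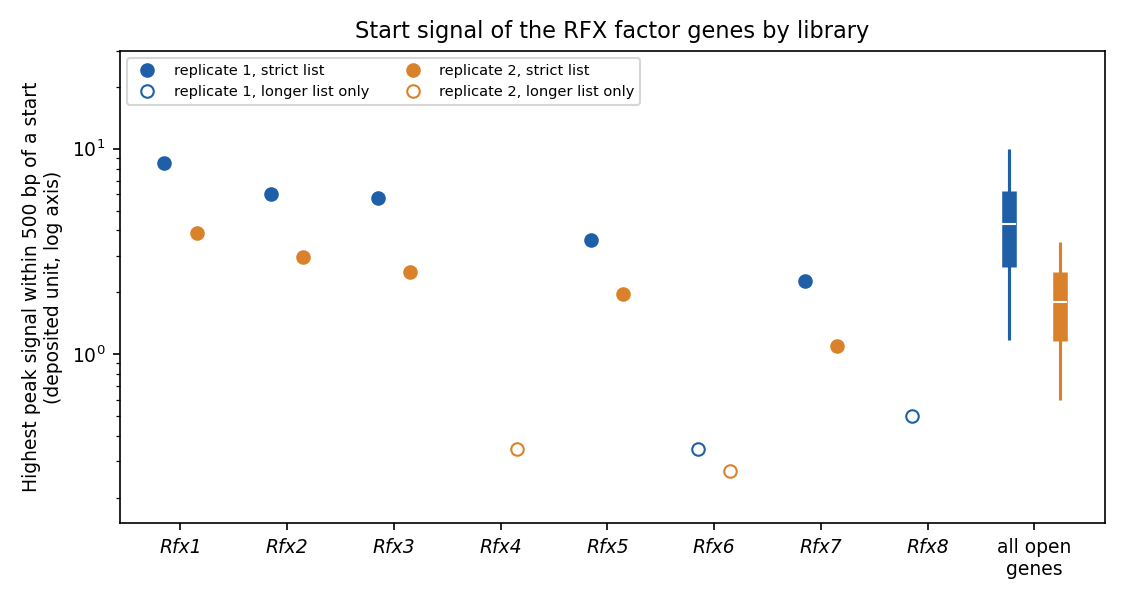
Highest deposited peak signal within 500 bp of an annotated start (log axis) for each RFX gene in each library; filled points are strict peaks, open points are peaks of the longer list only, and the bars at the right give the 5th to 95th percentile (line), quartiles (box) and median of all open protein-coding genes. Rfx1 stands highest at 8.49 and 3.89, and Rfx4, Rfx6 and Rfx8 have no filled point.

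Rfx1, a widely expressed member that acts as activator or repressor, had the most accessible start of the family. Its start signal was 8.49 in replicate 1 and 3.89 in replicate 2, where the medians over all open protein-coding genes were 4.31 and 1.80. These values lie at percentiles 90.3 and 97.6 of the open genes of each library. The accessible DNA at Rfx1 (chr8:84066834-84096992, plus strand) formed 2 separate regions. The first, chr8:84066441-84066900, covers the start and had 6.95 and 3.89. The second, chr8:84067281-84067500, had 8.49 and 2.69 and overlaps an exon of the antisense gene C330011M18Rik, whose start lies 453 bp downstream of that of Rfx1, so its signal cannot be given to either gene alone. Within replicate 1 the second region thus had the higher signal, and within replicate 2 the first.

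The start of Rfx2, a factor of ciliated cells and of the male germ line, followed with 5.99 in replicate 1 and 2.96 in replicate 2, at percentiles 72.6 and 86.5. Rfx3, known for the cilia of the embryonic node and of ependyma and for islet cells, had 5.77 and 2.51, at percentiles 70.3 and 75.5. The percentile ranges of Rfx2 and Rfx3 overlap, so these neighbours in the order do not differ beyond the spread between the libraries. Those of the other open members do not overlap with their neighbours. Of the 5 annotated starts of Rfx2 4 were open, and no list held a peak at the start 47309 bp into the gene. At Rfx3 5 of 8 starts were open, and those at 28218, 110271 and 174320 bp into the gene had no peak in any list.

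Rfx5, the DNA-binding subunit of the complex that sits on MHC class II promoters, had a start signal of 3.59 in replicate 1 and 1.97 in replicate 2, at percentiles 38.8 and 56.5, either side of the middle of the open genes. It has the most annotated starts of the family, of which 12 of 15 were open. The starts 688 and 940 bp into Rfx5 had only a strict peak of replicate 1, with 1.33, and the start at 1396 bp had none.

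Rfx7, a widely expressed member, was the least accessible of the open genes, with 2.28 in replicate 1 and 1.09 in replicate 2, at percentiles 19.5 and 22.0. Its accessible DNA was spread over 3 shared regions along about the first kilobase on either side of the start: chr9:72531401-72532000 had 1.56 and 1.09, chr9:72532061-72532340 had 2.28 and 0.810, and chr9:72532421-72533180 had 1.28 and 0.780. The lincRNA 4930509E16Rik starts at -382 bp on the other strand, inside the first of these. The Rfx7 start was therefore low in peak height in both libraries, but broad. Breadth was not particular to Rfx7. Its 3 regions were 600, 280 and 760 bp wide, and the 3 regions about the Rfx3 start were 506, 420 and 688 bp wide.

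None of the starts of Rfx4, Rfx6 and Rfx8 had a strict peak in either library. For Rfx4, a factor of radial glia, ependyma and astrocytes, the longer list held a peak of 0.345 in replicate 2 alone. For Rfx8, it held a peak of 0.50 in replicate 1 alone. For Rfx6, it held peaks in both libraries, of at most 0.346 and 0.270, so that 6 of 8 genes were open by the longer lists, against 59.7% of all protein-coding genes (13089 of 21938). The longer-list peaks at Rfx6 lie low in those lists, at percentiles 9.12 and 8.62.

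The deposited cut rate gave a view of the starts without peak calls. It lists the false discovery rate (FDR) of a raised rate of cutting at each base, up to 0.05. Rfx1, Rfx3 and Rfx7 had 100% of the bases within 500 bp of the outermost start listed in both libraries. Rfx2 had 95.4% in replicate 1 and 68.0% in replicate 2, and Rfx5 had 82.0% and 78.3%. Over all open protein-coding genes the medians were 75.2% and 72.7%, and over genes that were not open they were 0 in both libraries.

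Among the members that were not open, Rfx6 had 28.7% of these bases listed in replicate 1 and 62.5% in replicate 2. Rfx4 had 0.699% and 27.4%, and Rfx8 had 17.4% and 0%. At a stricter FDR of 0.001 little of this was left, with 0% and 4.00% for Rfx6, 0% and 1.20% for Rfx4, and 0% in both libraries for Rfx8. At that level Rfx7 still had 100% in both libraries, so its low peak height went with an unbroken stretch of cut DNA. Rfx1 with 100% and 97.3% and Rfx3 with 93.2% and 99.6% were close to it. Rfx2 had 67.6% and 52.6%, and Rfx5 had 76.0% and 57.4%.

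**Figure D2:**
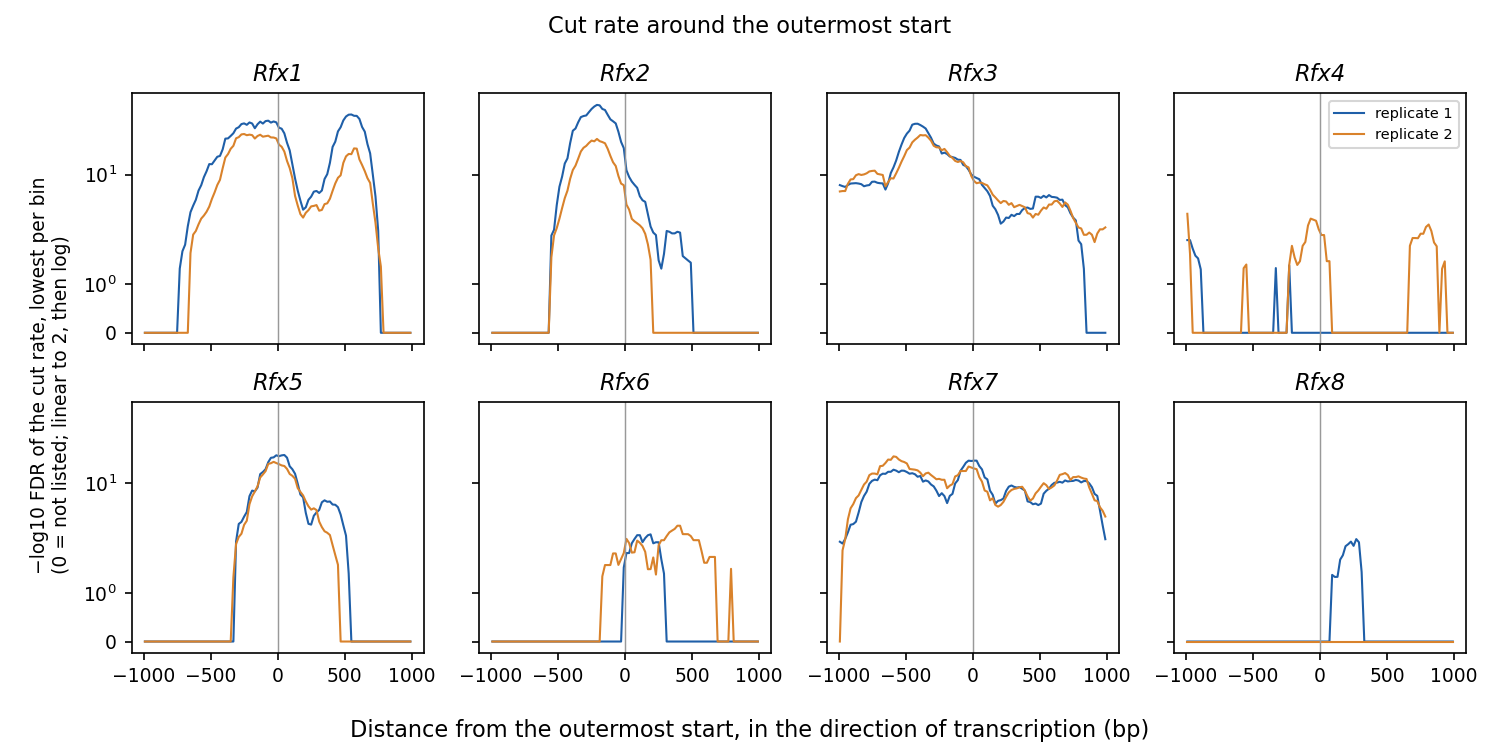
Deposited cut-rate FDR as −log10 (lowest value per bin of 20 bp; 0 where no base is listed; linear to 2, then log) by distance from the outermost annotated start in bp, along the direction of transcription, for each RFX gene in both libraries. Rfx1 shows 2 separate maxima, and Rfx2, Rfx3 and Rfx5 have 1 main maximum near or upstream of the start. Rfx7 is broad, Rfx3 is also listed over most of the span, and Rfx4, Rfx6 and Rfx8 stay low or unlisted.

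CpG content at the starts, which the choice of members did not use, was set beside these calls. The ratio of observed to expected CpG over the 1000 bp around the outermost start was 0.922 for Rfx1 and Rfx7, 0.873 for Rfx3, 0.832 for Rfx2 and 0.720 for Rfx5. It was 0.648 for Rfx4, 0.563 for Rfx8 and 0.519 for Rfx6, so the open members and the others do not overlap in this ratio. Of all protein-coding genes in the same decile of CpG ratio, 73.5% were open for Rfx4 and Rfx8, 54.8% for Rfx6, 83.2% for Rfx5, and 90.9% to 91.8% for the remaining members. The order by CpG ratio was not the order by signal, since Rfx7 shared the highest ratio and had the lowest start signal of the open members.

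Footprints gave a further readout at the starts. Shared footprints, called in both libraries and overlapping by at least 1 bp, lay within 500 bp of a start in 6 of 8 genes, against 51.3% of all protein-coding genes (11264 of 21938). Rfx3 had 6, Rfx1 and Rfx2 had 4 each, Rfx5 had 3, and Rfx6 and Rfx7 had 1 each, 19 in all. Rfx4 and Rfx8 had none. Some of them are shown because they lie near a start, mostly upstream, or hold a match to a common promoter motif, with capitals on CCAAT boxes and on GC boxes (GGGCGG) of either strand.
Rfx1, chr8:84066736-84066756: cgtggatggtagCCAATagca
Rfx1, chr8:84066804-84066826: ctggcgtgtgacgtagtagggtg
Rfx2, chr17:56831141-56831156: ttggaggGGGCGGggc
Rfx2, chr17:56831195-56831218: aaagCCAATggggagatcgcccgc
Rfx2, chr17:56831276-56831299: cgccaggccCCGCCCtccttctca
Rfx3, chr19:28011299-28011317: gaccgcagccccCCGCCCg
Rfx5, chr3:94953999-94954023: tcatattctgttaccaggcagactt
Rfx6, chr10:51677872-51677895: ctccgagatcgcggaggagtgctg
Rfx7, chr9:72532222-72532245: agtgcggctgcgcgcgctgggctg

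The first Rfx1 footprint is centred at -88 bp from the start and holds a CCAAT box, the element bound by the NF-Y complex, and the second lies at -19 bp. At Rfx2 the footprint at -194 bp holds a CCAAT box, while those at -136 and -275 bp hold GC boxes, the element of the Sp and Klf factors. A GC box also lies in the Rfx3 footprint at -142 bp. The Rfx5 footprint at -64 bp and the Rfx7 footprint at -6 bp hold none of the motifs searched. The single Rfx6 footprint, at 128 bp into the gene, lies outside any shared region, so the footprint files list protection there although neither strict list holds a peak. It is not shared where an overlap of 50% of the shorter footprint is required.

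Over the 39 shared regions described below, a CCAAT box lay in the central 200 bp of 11, and of 26.1% of all 37119 shared regions. Of the 9 regions at the members' own starts 5 held one, beside 28.8% of the 15215 shared regions at starts of protein-coding or long non-coding RNA genes. GC boxes were in 4 of the 9, beside 54.6%. The X-box was in none of the 9, beside 1.49%, a share so low that its absence from 9 windows says little. A match is a description of letters and not of a bound factor.

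The surroundings of the genes, the gene body with 50 kb on either side, held 39 shared regions, 9 at members' own starts, 6 in their introns, 13 at starts of other genes, and 11 elsewhere. At least 1 shared region lay around 7 of 8 genes, beside 84.4% of all protein-coding genes (18521 of 21938). Replicate 1 alone listed 62 strict peaks in these spans and replicate 2 alone 44. The median signal of the 39 regions was 2.85 in replicate 1 and 1.20 in replicate 2, where all shared regions had 2.49 and 0.990. Of the 39, 38 had the higher signal in replicate 1, the exception being chr1:39762101-39762284 upstream of Rfx8 with 0.757 and 0.863.

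Rfx2 had the most shared regions of the family by the strict lists of both libraries, and was level with Rfx7 in replicate 2 alone (10 each) and by the longer lists (12 each). It had 10, where the median for protein-coding genes of the same decile of length was 4, which places it at percentile 95.7 of them. Its shared footprints, 22 against a median of 8, lay at percentile 96.2, and each library alone listed 67 and 33 footprints there. Rfx7 had 8 regions, at percentile 87.4, and Rfx8 had 5, at percentile 57.7. Rfx5 with 4, Rfx1 with 4 and Rfx4 with 5 were at percentiles 54.2, 42.6 and 45.3. Rfx3, the longest gene of the family at 249446 bp, had 3, at percentile 18.8, and Rfx6 had none, like 7.61% of genes of its length class.

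**Figure D3:**
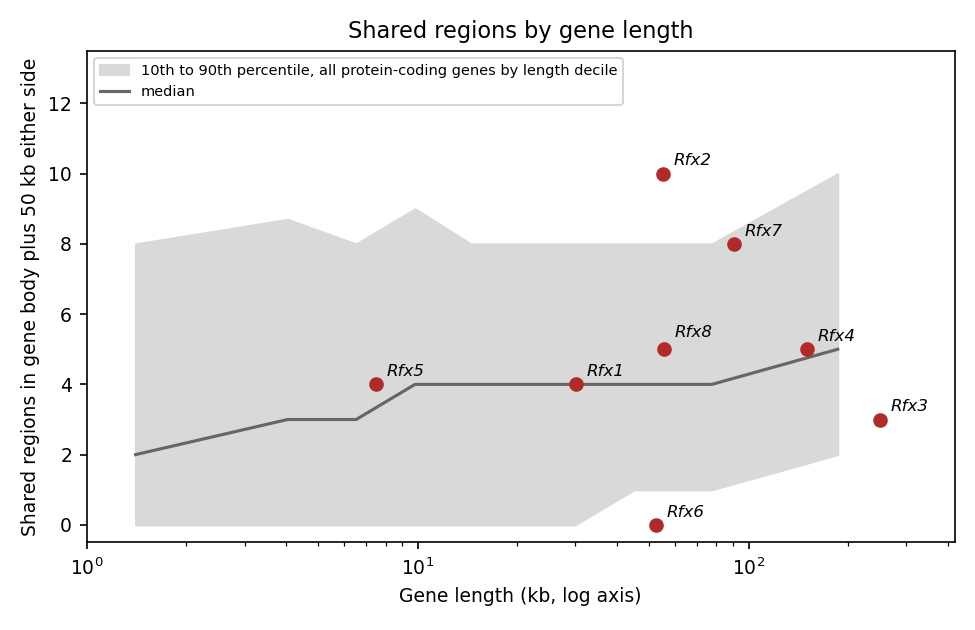
Number of shared regions in the gene body plus 50 kb on either side (vertical axis) against gene length in kb (log axis) for the 8 RFX genes (points), with the median (line) and the 10th to 90th percentile (grey) of all protein-coding genes by decile of length. Rfx2 with 10 regions lies above the grey band, Rfx6 with 0 below it.

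Regions inside the genes were few and unevenly placed. Rfx2 had 3 in its introns, Rfx4 had 2 and Rfx8 had 1, while Rfx1, Rfx3, Rfx5 and Rfx7 had none away from the start. In Rfx3 all 3 regions lay within about a kilobase of the outermost start: chr19:28011261-28011680 had 5.77 and 2.51, chr19:28010415-28010920 had 1.04 and 0.668, and chr19:28011761-28012448 had 1.38 and 1.18. The rest of the Rfx3 gene had no region shared by the strict lists.

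The intronic regions of Rfx2 had signals near one another. The values were 3.88 and 1.49 at chr17:56808601-56808800, 2.60 and 1.31 at chr17:56810321-56810520, and 3.76 and 1.34 at chr17:56814441-56814660, all under the 5.99 and 2.96 of the start. Those at 56810321 and 56814441 hold X-box matches, as printed above. The remaining regions around Rfx2 lie beyond the gene, among them the starts of Nrtn, a growth factor gene, with 2.26 and 0.600, and of Dus3l with 2.85 and 2.09.

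Rfx4 was accessible in an intron and not at its start. The region at chr10:84852641-84852860 had 2.77 in replicate 1 and 0.848 in replicate 2, at percentiles 53.8 and 39.8 of all shared regions, and holds the 3 shared footprints printed above in capitals. It contains none of the motifs searched. The other intronic region, chr10:84803561-84803759, was weak with 0.684 and 0.458. The neighbouring gene Ric8b had 3 regions at its starts, the highest with 7.93 and 2.83. Among 6 astrocyte markers, a cell type known for Rfx4, Gfap alone was open, with 6.85 and 1.58, while Slc1a3, Aldh1l1, Gja1 and Slc1a2 had strict peaks in replicate 1 alone and Aqp4 had none. By the longer lists 5 of the 6 astrocyte markers were open, against 59.7% of all protein-coding genes, so the low count depends on the list used. Whether the share of astrocytes in the tissue bears on the Rfx4 values was not tested.

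Rfx8 likewise had an accessible intron without an accessible start. The region chr1:39685941-39686140 had 2.84 and 0.930, at percentiles 54.7 and 46.0. Its CTCF core lies in a shared footprint. Beyond the gene, the start of Creg2 had 3.79 and 1.19.

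Within 2000 bp of the Rfx7 start, the region with the highest signal was not at the start itself. The region chr9:72530341-72530520, centred at -1809 bp, had 4.74 in replicate 1 and 1.52 in replicate 2, while the highest value at the start was 2.28 and 1.09. It holds a pair of CTCF cores in opposite orientation, of which the one on the downstream side lies in a shared footprint. With a window of 2000 bp in place of 500 bp this region is counted to Rfx7, and the start signal in replicate 1 becomes 4.74. CTCF cores were in 5 of the 39 regions and in none of the 9 at members' starts, beside 12.5% of all shared regions and 3.28% of those at starts.

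**Figure D4:**
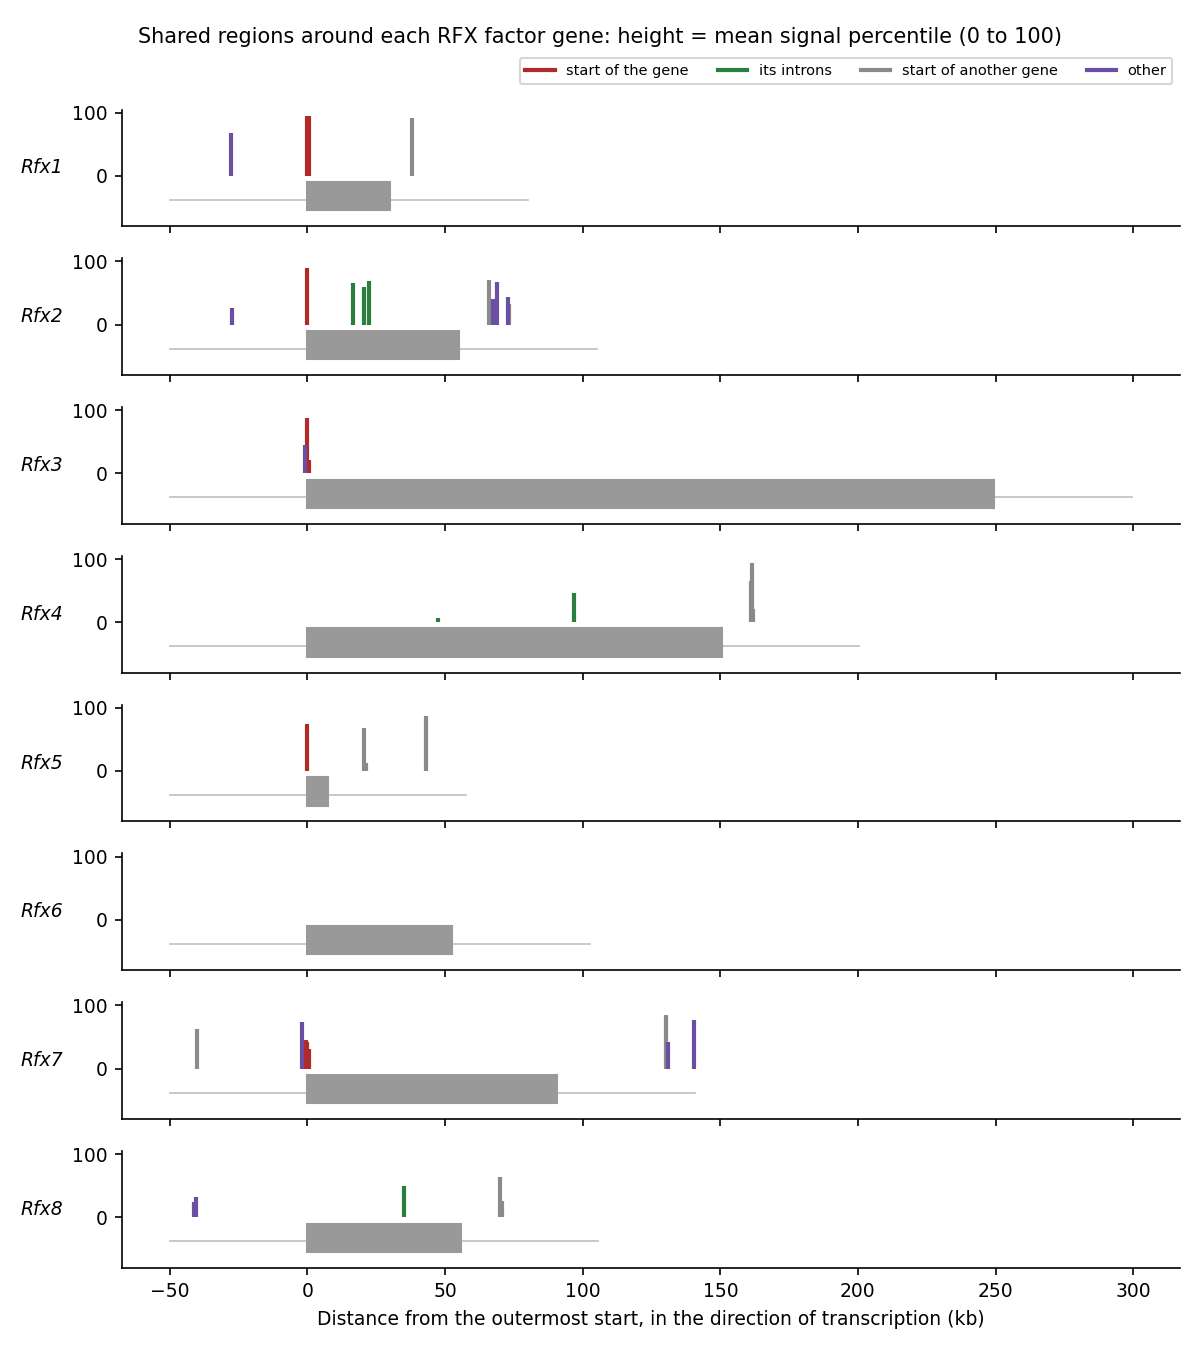
Shared regions around each RFX gene by distance from the outermost start in kb along the direction of transcription; the grey box is the gene body, the thin line its 50 kb surroundings, and the height of each bar is the mean of the region's signal percentiles in both libraries (0 to 100). Rfx2 has 3 intronic regions, Rfx3 has none beyond its start, and Rfx6 has no region.

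The X-box matches in the Rfx2 introns are the family's own binding motif within a member. The search required both arms with 0 to 3 bases between them, and 1.31% of all shared regions held such a match. Of the 39 regions 3 did, 2 in Rfx2 introns and 1 at the start of Tex9 upstream of Rfx7. The matches are shown with those of 2 ciliary genes to compare their letters, with capitals on the whole match.
Rfx2 intron, chr17:56814545-56814557: GTTGCTGGGCAAC
Rfx2 intron, chr17:56814503-56814517: GTCGCCCCTGGCAAC
Rfx2 intron, chr17:56810473-56810485: GTTGCTAGGCAAC
Tex9 start, chr9:72491977-72491990: GTTGCCGTGGTGAC
Dync2li1 start, chr17:84626453-84626466: GTTGCCATGGCAAC
Dnaic2 start, chr11:114727386-114727398: GTTGCTAGGCAAC

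In Rfx2, the matches at 56814545 and 56814503 lie with all 13 and all 15 of their bases inside shared footprints of 25 and 20 bp. That at 56810473 lies with 10 of its 13 bases inside one of 19 bp, and has the same letters as the match at -16 bp from the start of Dnaic2, an outer dynein arm gene of motile cilia. The match at Tex9 lies in no shared footprint. Over all shared regions, 255 of 502 X-box matches (50.8%) lay with at least 50% of the shorter element in a shared footprint. For the GC box that share was 36.3%, for the CCAAT box 17.6% and for the CTCF core 94.8%, while shared footprints cover 17.4% of the bases searched.

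Genes known to act with or under RFX factors were counted by the same rule, by which 54.1% of all protein-coding genes were open. CpG ratios differ within and between these lists, and the counts were not set beside genes of like CpG ratio. Of 7 genes that act with Rfx5 at MHC class II promoters 6 were open. Rfxap and Rfxank, the other subunits of the RFX complex, had 7.05 and 2.12, and 6.14 and 2.66. Ciita, the co-activator whose presence is known to set class II expression, had no peak in either strict list. Of a list of 11 genes, made of MHC class II genes with Cd74 and Ctss added, 4 were open. These were H2-Aa with 2.63 and 1.10, H2-Ab1 with 7.93 and 1.52, H2-Eb1 with 4.51 and 1.79, and H2-DMa with 10.6 and 3.56. The CpG ratio at the outermost start was 0.973 for H2-DMa, against 0.230 for H2-Aa, 0.247 for H2-Ab1 and 0.131 for H2-Eb1. Whether the start of another gene adds to the H2-DMa signal was not tested. The open start of Rfx5 thus stood beside open starts of Rfxap and Rfxank and beside a Ciita gene without a peak. Of 5 markers of microglia, the resident cells known for class II induction, 1 was open, and their part in the class II values was not tested. Some class II genes are close copies of one another, so reads could be shared among those.

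All 24 genes of intraflagellar transport and the Bardet-Biedl group, which build the primary cilium of most cells, were open, with medians of 5.16 and 2.25. Of 20 motile axoneme genes 14 were open, with lower medians of 2.66 and 1.06, and another 3 had strict peaks in replicate 1 alone. Of 8 factors of the multiciliated programme 2 were open, Foxj1 with 7.32 and 2.84 and Ccno with 3.73 and 1.99. Mcidas and Myb had peaks in replicate 1 alone, with 1.90 and 0.860, and Gmnc had a peak of each library at different starts, with 0.662 and 0.390. Of 7 ependyma and choroid plexus markers, Foxj1, Enkur and Dynlrb2 were open, while Ttr, Folr1, Kl and Aqp1 had no peak in either strict list, and the part of these cells in the values was not tested. X-box matches were in 3 of 30 start regions of the transport and Bardet-Biedl genes (10%) and in 3 of 18 of the axoneme genes (16.7%), beside 1.49% of start regions overall. For the Rfx5 partners the count was 0 of 10 and for the MHC class II list 0 of 8. It was 1 of 5 for the excitatory neuron markers, which are not a ciliary list. It was also 1 of 5 for the ependyma and choroid plexus markers, where the match lies at the start of Dynlrb2. Lists with so few regions cannot show whether the ciliary lists differ from others, and no difference between lists was tested.

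Of 12 genes of the pancreatic endocrine programme around Rfx6 0 were open, beside 54.1% of all protein-coding genes. Insm1, which is also known in developing neurons, had a strict peak in replicate 1 alone, with 1.35. Rfx6 and this list were thus alike in having no start with a strict peak in both libraries.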

How the data were processed

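DNase-seq was measured in 2 libraries of hippocampal tissue. The members and all gene and motif lists were chosen with earlier results of these data known. Membership itself was set by gene symbol and used no measured value, but the choice was not blind to the data. Per the deposited files and their notes, each library has a strict and a longer peak list with a signal per peak, footprints, and per-base cut rates. The deposited peak signal is the authors' own, with a scaling not stated, so signals are compared within a library. The deposited cut-rate p-value is an FDR, listed up to 0.05, and footprints carry a constant FDR of 0.01. The build is mm10, per the labels. The aligner, the peak and footprint callers and the read depth were not given in the sources used here, so no counting interval can be formed. Reads of the CAST parent were placed on the mm10 reference, and the effect on any site was not tested.

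Starts, bodies and classes came from GENCODE M21, sequences from RefSeq GRCm38.p6, and all peaks fell within its chromosome lengths. Peaks within 500 bp of a start, regions from overlaps of at least 1 bp, CpG ratios over 1000 bp and motifs in 200 bp around a region's middle were computed with Python 3.11.15, numpy 2.4.6 and pandas 2.3.3, and figures with matplotlib 3.10.9. The overlap code was checked on simulated data. All 8 members are named, with other genes from fixed lists in list order or as neighbours with a region at their start. Examples outside that order (H2-DMa, Creg2, Dus3l, Dnaic2, Dync2li1, Ccno, Insm1 and the X-box genes) were picked after their values were seen. No test was run, since there is 1 group of 2 libraries. Alternatives were each library alone, the longer lists, other windows and overlaps, and basic transcripts.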

Additional observations from a re-analysis of the deposited data

How the results depend on the processing

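The 5 open genes stayed 5 under every alternative except the longer peak lists, with 6. The open starts numbered 27 with both libraries, 27 to 29 with either library left out, 19 with 200 bp and 30 with 2000 bp around a start, and 14 with basic transcripts. The shared regions numbered 39, against 44 to 62 peaks with either library left out, 59 with the longer lists, 12 in the gene bodies alone and 67 with 100 kb on either side. Shared footprints numbered 75, against 153 to 225 footprints with either library left out, 19 in the gene bodies alone and 136 with 100 kb. These counts change because more or less sequence, or 1 library in place of 2, is counted. Requiring 50% overlap gave 38 regions and 68 footprints. For single genes, 17 of 24 region counts and 19 of 20 start signals stayed within 1.5 times. The start signal that moved was that of Rfx7 in replicate 1, which rose from 2.28 to 4.74 with 2000 bp. The strict peaks at the open starts recur in the longer lists with the same signal. Start signals compared between the lists could therefore hardly move, and say little about stability. No paired analysis was possible because the series holds a single group. Read depth is unknown, so a start without a peak may lie under the detection limit of a library.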
